A study of Mus musculus with 18 samples.

Results

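The antiviral genes induced by type I interferon were followed in a mouse glioma that grew in hosts of different genotype. Wild-type hosts were set against hosts that lack perforin as well as T and B cells. The set was defined by name, as 40 listed genes looked up by current or older symbol in a table of 30854 genes. Of these, 38 had a row, and no row was named for Isg15, the ubiquitin-like modifier of the response, or for Xaf1. Probes of 34 were detected (detection p under 0.01) on at least 2 of 18 arrays and could be tested among 13308 genes. The other 4 with a row did not pass. Probes of Ifit1, of Herc6 (matched to the older name of its row) and of Parp9 passed on 0 arrays, and the better probe of Ifi44 on 1, from a WT tumour at day 7. By the group detection score of the gene table, 32 of the 34 tested genes reached 0.99 in at least 1 group, and Oas3 and Ifitm1 in none.

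GL261 is a mouse glioma cell line. Its cells were injected into C57BL/6 hosts that were either wild-type (WT) or Pfp/Rag2 -/-, with mouse brain as the labelled source of the tissue. Pfp encodes perforin, with which killer cells pierce their targets, and Rag2 is needed to assemble the antigen receptors of T and B cells. Hosts without both still have natural killer cells, macrophages and microglia. Tumour tissue was taken on day 7 or day 14 (2 arrays per host type each, from 4 mice) or when the animals showed symptoms (3 arrays per host type, from 6 mice), and each array held RNA pooled from 2 or 3 mice. Brain of healthy WT C57BL/6 mice and GL261 cells grown in vitro gave 2 arrays each. Ages were not given in the labels. A p-value here measures the spread between these pooled arrays and not between single animals.

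Type I interferons signal through the receptor chains IFNAR1 and IFNAR2 to the kinases JAK1 and TYK2, which activate transcription factors of the STAT family. With IRF9 these form the complex ISGF3, which binds interferon-stimulated response elements (ISREs) in the promoters of the antiviral genes. Interferon-gamma acts mainly at gamma-activated sites (GAS), and induces some of the same genes. Many of the genes are also kept at a raised level by IRF factors or by unphosphorylated STAT complexes in tumour cells with no added interferon, and several encode sensors that start a new round of interferon production.

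The promoters below are shown because the interferon response element is what the set is known for, and because the genes behind them moved differently between hosts. They are RefSeq sequences of build GRCm38.p6, 250 bases before to 50 after a start of the gene, 5′ to 3′ on the gene's strand. For Ifit3 and Irf7 that start lies inside the annotated gene, which begins upstream of it, at 34583119 and 141266499. The whole Ifit3 window therefore lies inside the annotated gene. Capitals mark the ISRE core GAAANNGAAA, searched on both strands (TTTCNNTTTC on the other), and overlapping matches are joined. The first 4 hold the core and belong to genes that were lower in WT hosts at a later stage.
Ifit3 (chr19:34583279-34583578, plus strand): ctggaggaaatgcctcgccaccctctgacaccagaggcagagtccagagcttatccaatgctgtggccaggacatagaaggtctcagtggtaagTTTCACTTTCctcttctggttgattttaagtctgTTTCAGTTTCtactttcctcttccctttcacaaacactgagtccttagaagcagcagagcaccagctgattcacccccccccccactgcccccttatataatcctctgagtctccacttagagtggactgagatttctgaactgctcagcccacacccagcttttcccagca
Oas1g (chr5:120887564-120887863, minus strand): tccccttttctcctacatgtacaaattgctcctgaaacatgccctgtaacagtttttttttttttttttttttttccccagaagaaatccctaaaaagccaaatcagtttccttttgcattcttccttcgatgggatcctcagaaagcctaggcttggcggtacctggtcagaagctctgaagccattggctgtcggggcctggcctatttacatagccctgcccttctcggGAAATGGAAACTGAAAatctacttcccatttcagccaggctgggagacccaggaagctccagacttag
Rsad2 (chr12:26456403-26456702, minus strand): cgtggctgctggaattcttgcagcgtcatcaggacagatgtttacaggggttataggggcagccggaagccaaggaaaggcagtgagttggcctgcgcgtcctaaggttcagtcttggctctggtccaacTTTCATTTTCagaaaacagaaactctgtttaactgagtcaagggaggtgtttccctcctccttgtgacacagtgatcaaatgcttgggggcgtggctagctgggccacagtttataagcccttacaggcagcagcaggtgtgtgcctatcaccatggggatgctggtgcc
Ddx58 (chr4:40239776-40240075, minus strand): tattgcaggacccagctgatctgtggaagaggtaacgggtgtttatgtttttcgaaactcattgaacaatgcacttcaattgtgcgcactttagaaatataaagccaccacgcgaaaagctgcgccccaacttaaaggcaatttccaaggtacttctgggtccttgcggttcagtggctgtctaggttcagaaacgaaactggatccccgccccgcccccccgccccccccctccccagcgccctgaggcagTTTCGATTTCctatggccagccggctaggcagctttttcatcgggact
The other two do not hold these letters in the window. Irf7 was lower in WT hosts in symptomatic tumours, and Dtx3l was higher at day 7.
Irf7 (chr7:141266375-141266674, minus strand): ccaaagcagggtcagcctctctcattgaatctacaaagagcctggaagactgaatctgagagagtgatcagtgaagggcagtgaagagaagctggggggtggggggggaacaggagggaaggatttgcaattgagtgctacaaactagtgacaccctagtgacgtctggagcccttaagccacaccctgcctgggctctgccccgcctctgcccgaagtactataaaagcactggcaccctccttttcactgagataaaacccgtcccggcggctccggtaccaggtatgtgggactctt
Dtx3l (chr16:35938978-35939277, minus strand): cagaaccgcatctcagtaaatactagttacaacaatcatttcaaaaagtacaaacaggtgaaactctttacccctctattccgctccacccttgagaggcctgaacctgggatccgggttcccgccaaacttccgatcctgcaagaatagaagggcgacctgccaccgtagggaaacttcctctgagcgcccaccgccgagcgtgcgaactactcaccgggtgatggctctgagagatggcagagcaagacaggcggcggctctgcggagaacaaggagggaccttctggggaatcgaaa
Positions count from the start on which each window was set, as 0. The cores of Ifit3 began at positions -156 and -122, those of Oas1g at -18 and -12, that of Rsad2 at -120 and that of Ddx58 at 2.

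A window was held for 29 of the 40 genes, and 14 of them (48.3%) had the ISRE core, against 3.99% of the 27025 genes with a window. The GAS letters TTCNNNGAA, which read the same on both strands, stood in 7 of the 29 (24.1%) against 9.55% of genes. Among the tested genes 24 had a window, and 12 of these the ISRE core. Of the 10 genes lower in symptomatic WT tumours, 7 had a window and 4 of these the ISRE core (Ddx58, Ifit3, Oas1g and Rsad2). Of the 7 lower at day 14, 4 had a window and 3 of these the core (Ddx58, Oas1g and Rsad2). Trim25, Oasl2 and Samd9l, each also lower at a later stage and not printed above, lacked it. Of the 6 genes higher in WT tumours at day 7, 5 had a window and 1, Trim21, the core. A match is a run of letters and not a measured binding site.

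The 18 arrays had median probe signals of 67.2 to 134, and 32.3% to 39.8% of probes were detected on an array. Replicate arrays correlated at 0.9665 to 0.9964 across genes. Precision is limited by how few arrays each group has. The Rag2 probe was detected on 0 of 18 arrays, WT hosts included, and the tested Prf1 probe (perforin) on all 18, cultured cells included. The place of these probes relative to the deleted exons was not known, so neither checks the genotype. Of 7 measured T cell markers, Cd3d, Cd3e, Cd2 and Cd4 were detected on none of the Pfp/Rag2 -/- tumour arrays. Cd3g, another chain of the receptor complex, was on 0 of these arrays at day 7, on 1 of 2 at day 14 and on all 3 in symptomatic tumours. Lck and Cd8b1 were detected in both hosts and in cultured cells. In WT tumours Cd4 alone was on no array. The summed signal of 6 measured macrophage and monocyte markers (of 9 listed) was 6326 to 6707 in WT and 2441 to 3860 in Pfp/Rag2 -/- tumours at day 7. The sums were 8468 to 9349 against 2032 to 2468 for day 14 and 4862 to 6452 against 1646 to 1680 for symptomatic tumours. Those of 6 microglia markers overlapped between hosts at day 7, with 6895 to 7990 against 5901 to 7879. They were 9493 to 9602 against 5131 to 5207 for day 14 and 6276 to 11290 against 3451 to 3905 for symptomatic tumours. In healthy brain the macrophage sum was 985.1 to 1161, with Fcgr4 on no array. In cultured cells it was 211.6 to 251.5, with 5 of the 6 markers, among them Adgre1, Cd68 and Csf1r, on no array. In bulk tissue, fewer cells of a type and less RNA per cell cannot be told apart.

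As a set, the antiviral genes were dimmer in healthy brain than in GL261 cells and tumours. Of the 34 tested genes, 17 were detected on neither brain array and 16 on both. In cultured GL261 cells 30 were detected on both arrays, and Ifih1, Oas3, Mx1 and Isg20 on neither. Relative to the brain mean, the median of the 34 genes lay at 3.58 and 3.55 (log2) on the cultured-cell arrays and between 3.57 and 4.38 on the 14 tumour arrays. The median of all genes lay between -0.08 and 0.20 on the same arrays. A log2 difference of 1 is a ratio of 2.

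**Figure D1:**
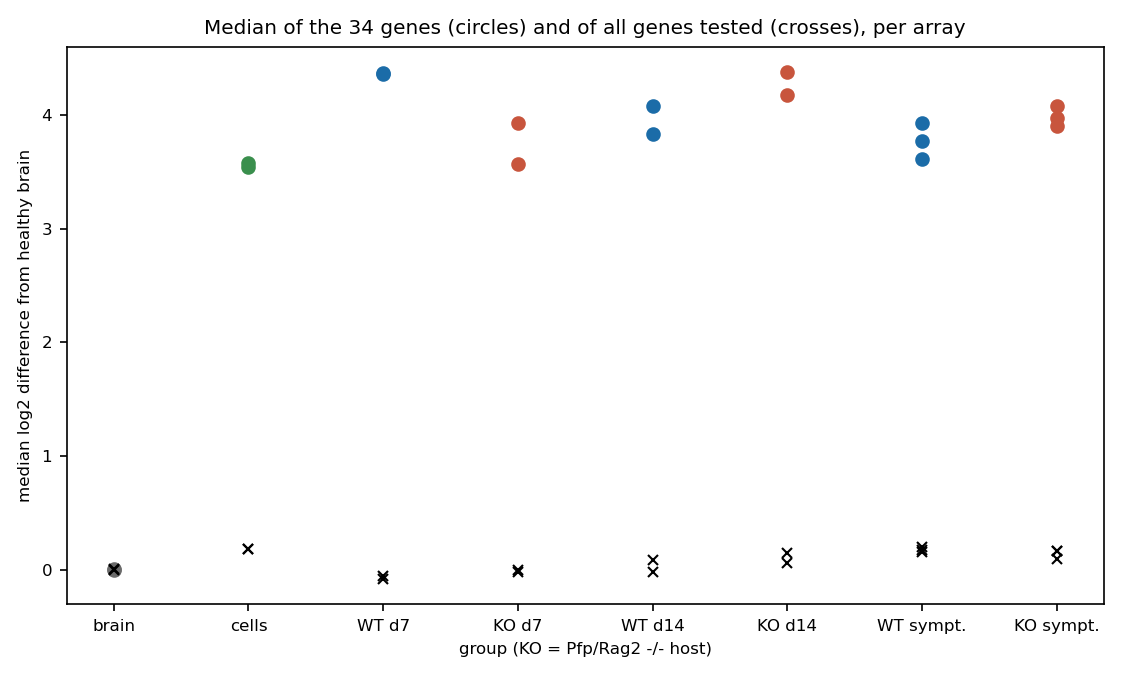
Each circle is 1 array and gives the median, over the 34 tested antiviral genes, of the log2 difference from the mean of healthy brain, and each cross is the same over all 13308 genes (KO = Pfp/Rag2 -/- host, cells = cultured GL261). Circles of tumours and cells lie between 3.55 and 4.38, and crosses between -0.08 and 0.20.

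Against healthy brain, 33 of the 34 genes were called higher in cultured cells (limma adjusted p under 0.05, the rule for every call here), where 42.3% of all genes tested were called higher and 34.2% lower. In WT tumours at day 7, 32 were higher (28.6% of all genes, with 29.6% lower), and in Pfp/Rag2 -/- tumours 33 (27.8%, with 26.6% lower). None was called lower. The 17 genes detected on neither brain array passed the filter only through other groups, so for them values above brain were favoured in advance. Ifih1 was detected in neither cultured cells, Pfp/Rag2 -/- tumours of day 7 nor brain, and Oas3, Mx1 and Isg20 in neither cells nor brain. These calls therefore carry no direction or fold. The comparisons share the brain arrays. The median difference was 3.54, 4.31 and 3.75 in that order, and 3.41, 3.84 and 3.59 with genes undetected in brain set to the least difference that the detection limit allows (0 where neither group detected them). On the series values, the authors' other deposited set of signals, whose scaling is not known, the median of all genes moved to -0.59, 0.89 and 0.96, and 41.3%, 95.1% and 94.6% of all calls were higher, against 55.3%, 49.2% and 51.1%. The median of the antiviral genes was still 3.14, 3.10 and 2.62 above that of all genes.

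Rsad2, which encodes viperin, an enzyme that makes a chain-terminating nucleotide against viral polymerases, was at least 111-fold higher than in brain in WT tumours at day 7. The bound was 92.8-fold in Pfp/Rag2 -/- tumours and 52.4-fold in cultured cells. Irf7, the transcription factor that amplifies interferon production, was at least 37-fold, 27.6-fold and 10-fold higher in the same order. Ddx58, which encodes the RNA sensor RIG-I, was at least 13.5-fold higher in WT tumours, 14.8-fold in Pfp/Rag2 -/- tumours and 23.8-fold in cells. Oas2 was at least 8.92-fold, 7.33-fold and 3.79-fold higher. Usp18, the protease that removes ISG15 from proteins and damps the receptor, was detected in brain and stood 6.04, 5.88 and 5.63 (log2) above it. Zbp1, a sensor of left-handed nucleic acids, was called in none of these comparisons, and Ifih1, which encodes the RNA sensor MDA5, was not called in WT tumours, where no array detected it.

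The host comparison sets the tumours of WT mice against those of Pfp/Rag2 -/- mice at each stage. The hosts differ in perforin as well as in T and B cells, and these cannot be told apart here. No day is given for the symptomatic harvest, so tumours of that stage may also differ in age between hosts, which was not tested. The host difference is WT minus Pfp/Rag2 -/- on the log2 scale throughout. At day 7 the genes leaned higher in WT tumours. Ifit2, Trim21, Parp14, Dtx3l, Cmpk2 and Isg20 were called higher, which is 6 of 34 against 2.47% of all genes, and 0 lower against 1.11%. The difference was above 0 for 30 of 34, with a median of 0.37 against -0.02 over all genes. Without WT array 1, or without Pfp/Rag2 -/- array 1, 1 of the genes was called in place of 6, and 0 were called at day 7 or day 14 in a fit of the compared arrays alone. Choroid plexus markers, all 6 of them detected on both Pfp/Rag2 -/- arrays, summed to 24520 to 39850 there and to 3559 to 10270 on the WT arrays, where Folr1 and Sostdc1 were on neither. Their part in the result was not tested.

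At day 14 the lean was the other way. Ddx58, Oas1b, Oas1g, Oas2, Trim25, Rsad2 and Rtp4 were called lower in WT tumours, which is 7 of 34 against 6.57% of all genes, and Mx1 and Parp14 higher, 2 against 7.25%. The difference was below 0 for 29 of 34, with a median of -0.38 against -0.06. Under cyclic loess scaling 69.6% of all calls were higher in place of 52.4%, and the antiviral genes split into 3 higher and 7 lower. The count of 9 was 3 without WT array 1, 5 without Pfp/Rag2 -/- array 1 and 4 without Pfp/Rag2 -/- array 2. Oligodendrocyte markers, all 6 detected on every one of these arrays, summed to 31990 on WT array 1, 13890 on WT array 2, and 13310 and 6752 on the Pfp/Rag2 -/- arrays. Macrophage markers were higher in WT tumours, as given above. Choroid plexus markers summed to 2208 to 12600 in WT and 368.4 to 631.1 in Pfp/Rag2 -/- tumours, the opposite order to day 7. Folr1, Kl, Sostdc1 and Kcne2 were on neither Pfp/Rag2 -/- array. The part of none of these lists was tested.

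In symptomatic tumours Ddx58, Irf7, Usp18, Ifit3, Oas1g, Oas2, Oasl2, Rsad2, Samd9l and Rtp4 were called lower in WT tumours, 10 of 34 against 7.99% of all genes. Parp14 was the 1 called higher, against 9.35%. The difference was below 0 for 27 of 34, with a median of -0.21 against -0.02 over all genes. Without Pfp/Rag2 -/- array 2 the count of 11 was 7. On the series values, whose median over all genes was 0.12, 78.2% of all calls were higher in place of 53.9%, the antiviral genes split into 4 higher and 6 lower, and 20 of 34 were below 0. Oligodendrocyte markers summed to 6224 to 8145 in WT and 9636 to 13660 in Pfp/Rag2 -/- tumours, with all 6 detected on every array. Their part in the result was not tested.

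**Figure D2:**
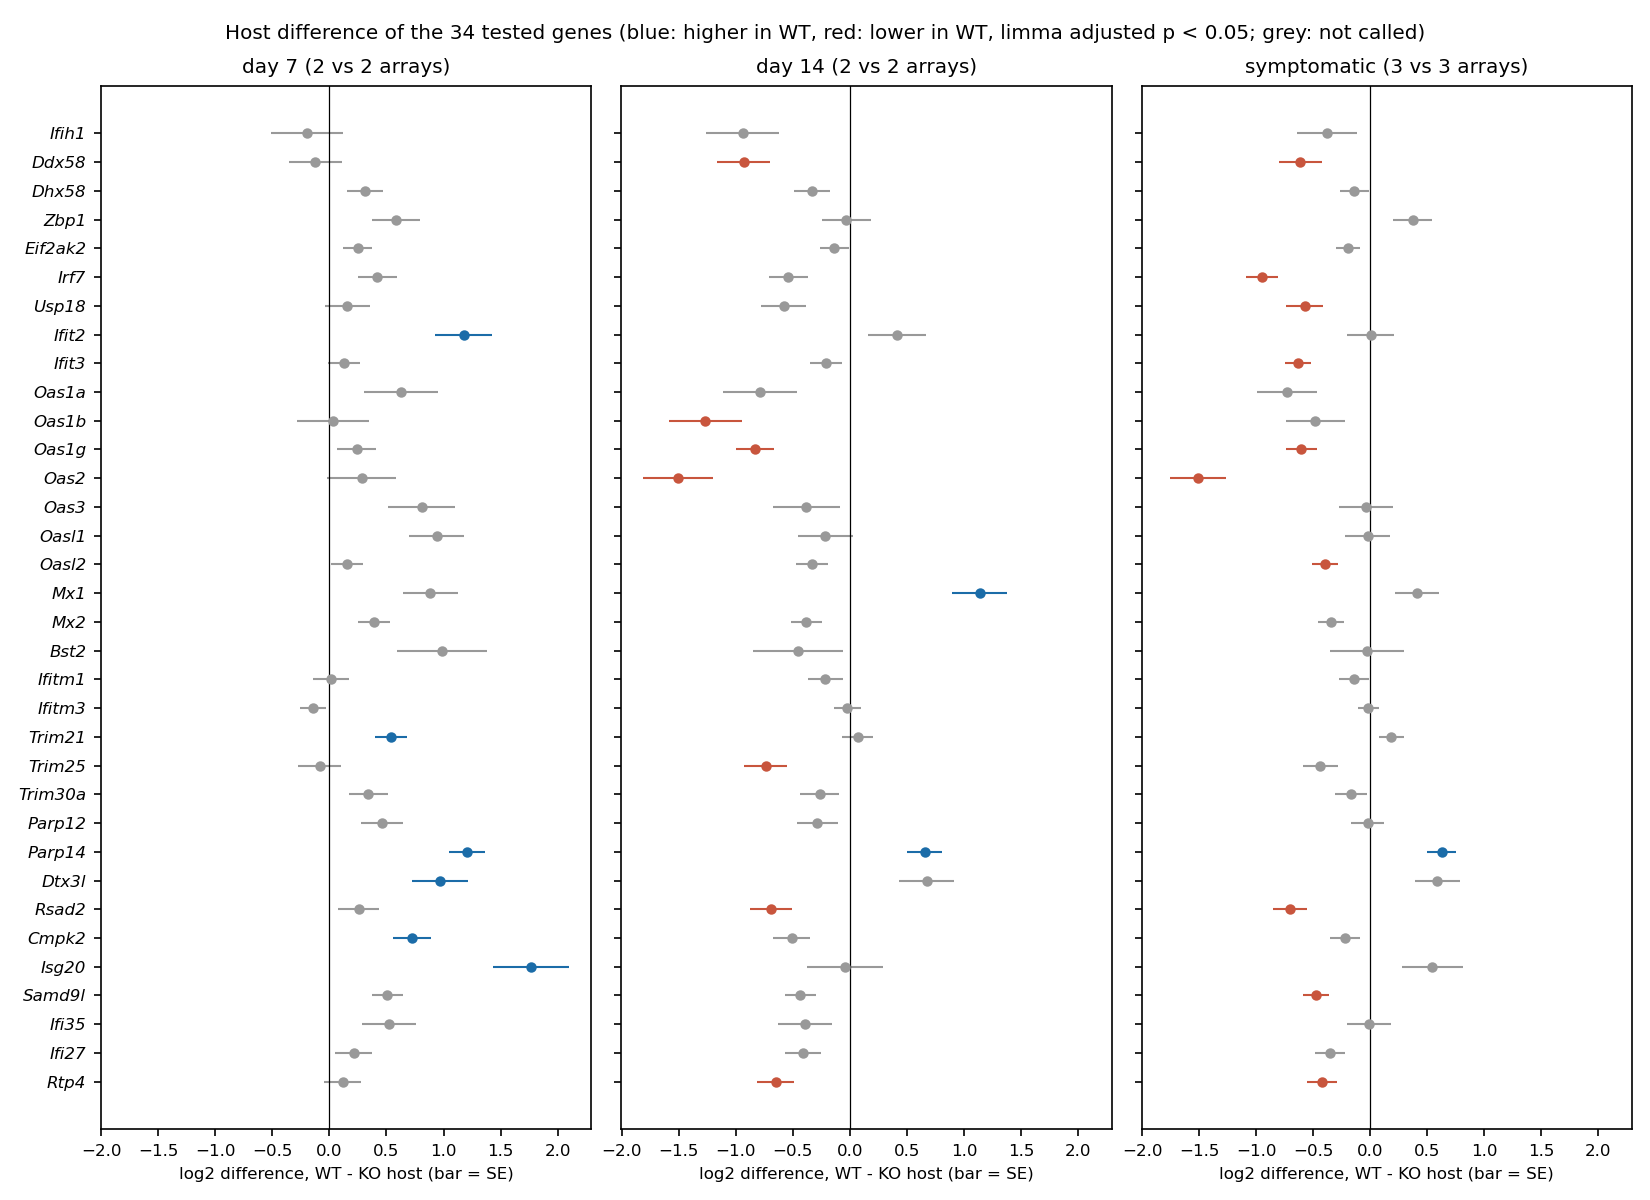
Host difference (log2, WT minus Pfp/Rag2 -/-) at each of the 3 stages for each of the 34 tested genes, ordered by role, with the SE of limma's fit as a bar. Called genes are blue (higher in WT) or red (lower in WT), with 6 blue and 0 red for day 7, 2 blue and 7 red for day 14, and 1 blue and 10 red for symptomatic tumours.

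The sensors of viral nucleic acid were led by Ddx58. At day 7 Ddx58 read 9.49 and 9.69 (log2 signal, the scale of all values by array) in WT and 9.53 and 9.90 in Pfp/Rag2 -/- tumours. At day 14 it read 9.06 and 9.89 against 10.40 and 10.40. In symptomatic tumours the values were 9.29, 9.64 and 9.79 against 10.16, 10.26 and 10.14. The hosts overlapped at day 7, and at both later stages every WT array lay below every Pfp/Rag2 -/- array. The host difference was -0.93 (SE 0.23, adjusted p = 0.018) at day 14 and -0.61 (SE 0.19, adjusted p = 0.0414) in symptomatic tumours. The first call was lost without WT array 1 or either Pfp/Rag2 -/- array, and the difference lay between -1.34 and -0.52 over 13 alternatives. The second was lost under 7 of 16, with differences between -0.72 and -0.47. Cultured cells, at 10.35 and 10.47, reached the level of the brightest tumours, and brain lay at 5.29 and 5.48. Ifih1, Dhx58 (which encodes LGP2, a regulator of both RNA sensors), Zbp1 and Eif2ak2 (which encodes PKR, a kinase that stops translation on double-stranded RNA) were called at no stage. The sensor Ifih1 was detected on 5 arrays in all, and its day 14 difference was -0.94 (adjusted p = 0.0688).

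Irf7 was lower in symptomatic WT tumours than in those of the other host. At day 7 Irf7 read 11.02 and 11.07 in WT and 10.78 and 10.46 in Pfp/Rag2 -/- tumours. At day 14 Irf7 read 10.55 and 10.28 against 10.99 and 10.92. Irf7 in symptomatic tumours read 9.29, 9.60 and 9.85 against 10.42, 10.66 and 10.51. WT arrays were thus the higher ones at day 7 and the lower ones afterwards, without overlap at any stage. The host difference was 0.42 (adjusted p = 0.246) at day 7, -0.54 (adjusted p = 0.053) at day 14 and -0.95 (SE 0.14, adjusted p = 0.000478) in symptomatic tumours, where it was called under all 16 alternatives. Within WT hosts the difference of Irf7 was -0.63 (adjusted p = 0.0399) from day 7 to day 14 and -0.84 (adjusted p = 0.00554) from there to the symptomatic stage. In Pfp/Rag2 -/- tumours it was not called between stages. Cultured cells read 9.13 and 9.19 and brain 4.87 and 4.92, undetected.

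The ISG15 system was measured through Usp18 alone. Its host difference was 0.15, -0.58 and -0.57 at the 3 stages, called at the last (adjusted p = 0.0261) and no longer called on the series values (-0.40) or with any of 4 arrays left out in turn. The IFIT proteins bind viral RNA caps and ends, and Ifit2 and Ifit3 behaved differently. At day 7 Ifit2 read 11.88 and 11.39 in WT and 10.28 and 10.64 in Pfp/Rag2 -/- tumours. At day 14 Ifit2 read 10.999 and 11.06 against 10.88 and 10.35. Ifit2 in symptomatic tumours read 9.32, 10.10 and 10.01 against 9.90, 9.70 and 9.81. WT arrays were the higher ones at day 7 and day 14, and the hosts overlapped in symptomatic tumours. Ifit2 was called at day 7, at 1.18 (SE 0.25, adjusted p = 0.0207), a call lost without WT array 1 or Pfp/Rag2 -/- array 1, with differences of 0.93 to 1.42 over 13 alternatives. Brain stood at 7.48 and 7.37 and cultured cells at 8.66 and 8.79, so that every tumour array was brighter than the cells.

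Ifit3 was lower in symptomatic WT tumours than in those of the other host. At day 7 Ifit3 read 14.18 and 14.08 in WT and 14.20 and 13.81 in Pfp/Rag2 -/- tumours. At day 14 Ifit3 read 13.63 and 13.51 against 13.87 and 13.68. Ifit3 in symptomatic tumours read 12.44, 12.62 and 12.75 against 13.25, 13.22 and 13.24. The hosts overlapped at day 7, and the WT arrays were the lower ones at both later stages. The call was in symptomatic tumours, -0.64 (SE 0.11, adjusted p = 0.00198), and it held under all 16 alternatives. Symptomatic WT tumours also lay below cultured cells, which read 13.10 and 13.11, by a difference of -0.50 (adjusted p = 0.00807). Brain read 9.53 and 9.52.

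The 2'-5'-oligoadenylate synthetases make the messenger that activates RNase L, and all of those measured lie on chromosome 5 by the RefSeq annotation. They are close paralogs, so probes of one may bind RNA of another. Of 7 measured, 0 were called at day 7, 3 were lower at day 14 and 3 in symptomatic tumours, and the median host difference was 0.28, -0.79 and -0.48. The median kept its sign at each stage under the 3 other scalings tried.

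Oas2 had the widest gap between hosts of the 34 genes at both later stages. At day 7 Oas2 read 9.02 and 8.96 in WT and 8.28 and 9.13 in Pfp/Rag2 -/- tumours. At day 14 Oas2 read 8.39 and 8.21 against 9.29 and 10.32. Oas2 in symptomatic tumours read 7.97, 7.86 and 8.04 against 9.17, 9.56 and 9.67. The hosts overlapped at day 7, and afterwards the lowest Pfp/Rag2 -/- array stood well above the highest WT array. The difference was -1.50 (SE 0.30, adjusted p = 0.00518) at day 14 and -1.51 (SE 0.25, adjusted p = 0.00104) in symptomatic tumours. The first was lost without Pfp/Rag2 -/- array 2, the brighter of its group, where it was -0.99, and the second was called under all 16 alternatives. Cultured cells read 7.63 and 7.88, close to symptomatic WT tumours, and brain 4.70 and 4.64, undetected.

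Oas1g at day 7 read 11.10 and 11.002 in WT and 10.64 and 10.98 in Pfp/Rag2 -/- tumours. At day 14 Oas1g read 10.57 and 10.93 against 11.56 and 11.60. Oas1g in symptomatic tumours read 10.23, 10.53 and 10.60 against 10.91, 11.03 and 11.23. WT arrays were the higher ones at day 7 and the lower ones later, with no overlap. The difference was -0.83 (SE 0.17, adjusted p = 0.00546) at day 14, not called without WT array 1 (-0.66), and -0.60 (SE 0.14, adjusted p = 0.00894) in symptomatic tumours. Cultured cells read 10.71 and 10.63 and brain 5.10 and 5.29.

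Oas1b, whose allele is truncated in most laboratory strains, was lower in WT tumours at day 14. At day 7 Oas1b read 7.12 and 7.39 in WT and 7.07 and 7.37 in Pfp/Rag2 -/- tumours. At day 14 Oas1b read 6.27 and 7.39 against 7.90 and 8.29. Oas1b in symptomatic tumours read 6.54, 7.25 and 7.28 against 7.32, 7.49 and 7.71. WT array 1 of day 14 was the lowest of these tumour arrays and the Pfp/Rag2 -/- arrays of day 14 the highest. The call was at day 14, -1.27 (SE 0.32, adjusted p = 0.0185), and it was lost without WT array 1 (-0.71) or Pfp/Rag2 -/- array 2. Cultured cells read 7.61 and 7.57 and brain 4.56 and 4.57.

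Oas1a, an active synthetase, was near the detection limit on many arrays and was called at no stage. At day 7 Oas1a read 6.81 and 6.25 in WT and 5.86 and 5.95 in Pfp/Rag2 -/- tumours. At day 14 Oas1a read 5.84 and 6.40 against 6.66 and 7.17. Oas1a in symptomatic tumours read 4.89, 6.04 and 5.86 against 6.31, 6.41 and 6.26. The hosts did not overlap at any stage, and the order turned after day 7, with differences of 0.63, -0.79 and -0.73 (adjusted p = 0.0748). Cultured cells read 6.94 and 6.81 and brain 4.58 and 4.62. Oas3 and Oasl1 had larger differences at day 7, 0.81 and 0.94 (adjusted p = 0.0501), than later, between -0.38 and -0.02, and were not called. Oasl2 was called in symptomatic tumours, at -0.39 (adjusted p = 0.0298), and lost the call under 9 of 16 alternatives.

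**Figure D3:**
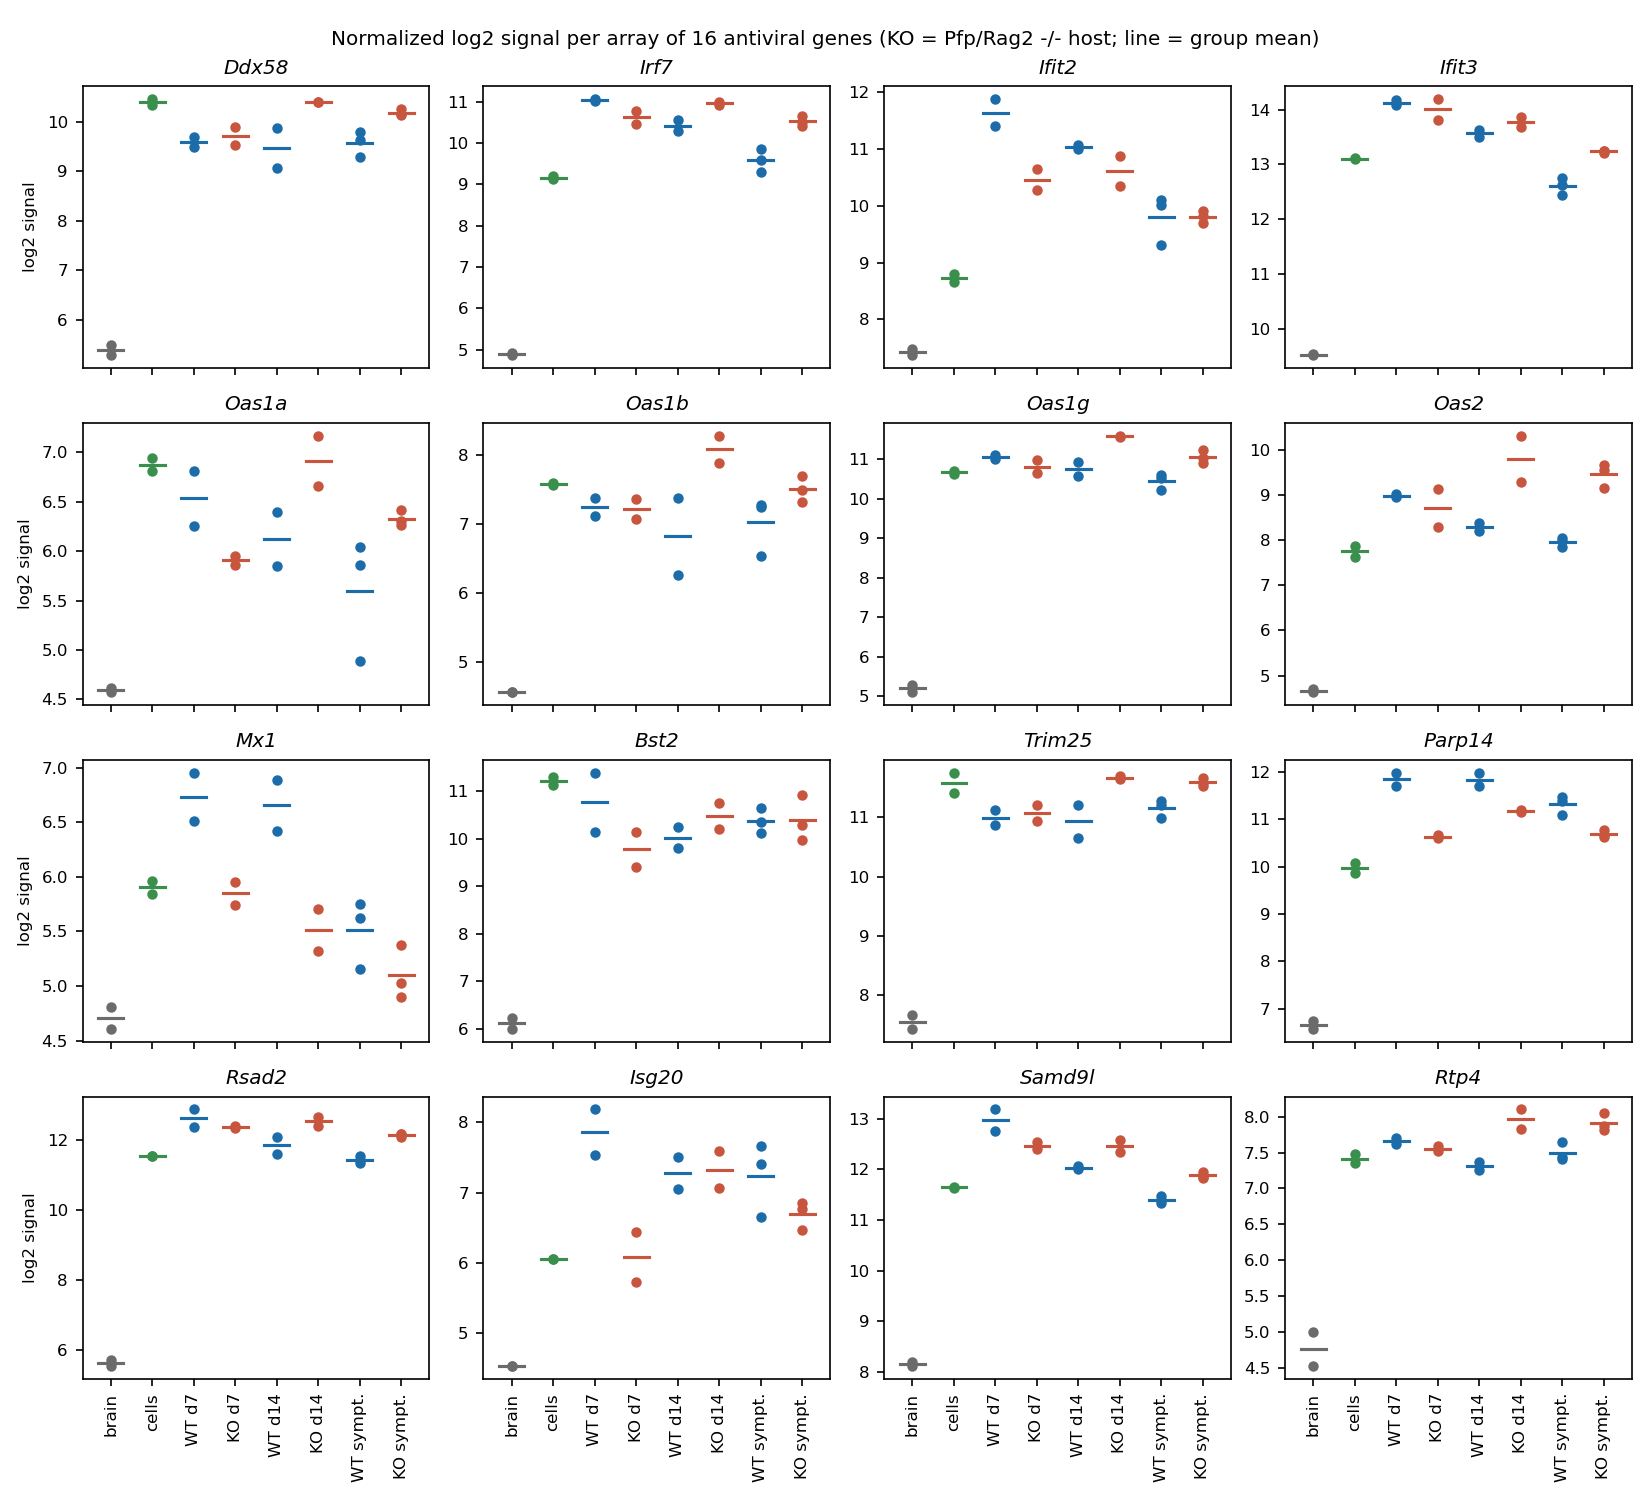
Normalized log2 signal on each array of 16 antiviral genes, 1 panel per gene with its own scale (KO = Pfp/Rag2 -/- host, cells = cultured GL261, line = group mean). Parp14 is higher in WT at all stages, Oas2, Oas1g, Rsad2 and Ddx58 are lower in WT at both later stages, and brain is lowest in every panel.

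The Mx GTPases trap viral nucleocapsids, and Mx1 is defective in most laboratory mouse strains. At day 7 Mx1 read 6.95 and 6.51 in WT and 5.96 and 5.74 in Pfp/Rag2 -/- tumours. At day 14 Mx1 read 6.42 and 6.88 against 5.32 and 5.71. Mx1 in symptomatic tumours read 5.16, 5.75 and 5.62 against 5.02, 4.89 and 5.38. WT arrays were the higher ones at day 7 and day 14, and the hosts overlapped later. At day 14 it was called at 1.14 (SE 0.24, adjusted p = 0.0068), at least 1.7-fold, since no Pfp/Rag2 -/- array detected it. No symptomatic array of either host and no cultured-cell array did so either, with cells at 5.85 and 5.96 and brain at 4.61 and 4.81. Mx2 was called at no stage, with differences of 0.39, -0.38 and -0.34 (adjusted p = 0.0524), with the opposite sign to Mx1 at the later stages. The median of the pair in symptomatic tumours was 0.03, and below 0 under cyclic loess and without background correction.

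No membrane restriction factor was called between hosts by its brightest probe. Bst2 encodes tetherin, which holds budding virions at the cell surface. At day 7 Bst2 read 10.15 and 11.39 in WT and 9.41 and 10.14 in Pfp/Rag2 -/- tumours. At day 14 Bst2 read 9.79 and 10.24 against 10.74 and 10.20. Bst2 in symptomatic tumours read 10.35, 10.11 and 10.64 against 9.97, 10.28 and 10.92. The pools of 1 group differed by as much as the hosts, which overlapped after day 7, and the SE of the differences was 0.40 at day 7 and day 14. Cultured cells read 11.29 and 11.12, above all tumour arrays but 1, and brain 6.23 and 6.005. Ifitm1 and Ifitm3, which block viral entry from endosomes, had differences between -0.21 and 0.01 for Ifitm1 and of -0.15 to -0.01 for Ifitm3. Another Ifitm1 probe, detected on 16 arrays, was 2.19 at day 14 and 0.99 in symptomatic tumours.

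Among the TRIM ligases, Trim25, which activates RIG-I by ubiquitination, was lower in WT tumours at day 14. At day 7 Trim25 read 10.87 and 11.12 in WT and 10.94 and 11.22 in Pfp/Rag2 -/- tumours. At day 14 Trim25 read 10.65 and 11.22 against 11.70 and 11.65. Trim25 in symptomatic tumours read 10.99, 11.27 and 11.21 against 11.54, 11.58 and 11.67. The Pfp/Rag2 -/- arrays were the higher ones at both later stages, and the hosts overlapped at day 7. The difference was -0.74 (SE 0.19, adjusted p = 0.0209) at day 14, lost without WT array 1 or either Pfp/Rag2 -/- array (-1.02 to -0.46 over 13 alternatives), and -0.44 (adjusted p = 0.072) in symptomatic tumours. Cultured cells read 11.41 and 11.76 and brain 7.66 and 7.42. Trim21, an intracellular receptor for antibodies, was higher in WT at day 7, at 0.54 (adjusted p = 0.0493), and lost the call under 7 of 13 alternatives. Trim30a was called at no stage.

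Parp14, an ADP-ribosyltransferase, was the 1 gene of the set called at all 3 stages, and in each it was higher in WT tumours. At day 7 Parp14 read 11.98 and 11.69 in WT and 10.61 and 10.66 in Pfp/Rag2 -/- tumours. At day 14 Parp14 read 11.69 and 11.98 against 11.16 and 11.20. Parp14 in symptomatic tumours read 11.09, 11.48 and 11.39 against 10.62, 10.67 and 10.77. Every WT array lay above every Pfp/Rag2 -/- array of its stage. The difference was 1.21 (SE 0.15, adjusted p = 0.000796) at day 7, 0.66 (SE 0.15, adjusted p = 0.0134) at day 14 and 0.63 (SE 0.13, adjusted p = 0.00419) in symptomatic tumours. The day 14 call was lost without WT array 2 or either Pfp/Rag2 -/- array, with differences of 0.52 to 0.84 over 13 alternatives, and the symptomatic call held under all 16. Among all genes, 225 were called higher at the 3 stages. Cultured cells read 9.87 and 10.07 and brain 6.57 and 6.74, both below every tumour.

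Parp14 and Dtx3l, neighbouring protein-coding genes on chromosome 16 by the RefSeq annotation, had differences above 0 at each stage. Dtx3l is the ubiquitin ligase that partners PARP9, and its values were 0.97 (adjusted p = 0.0452), 0.68 (adjusted p = 0.0843) and 0.59 (adjusted p = 0.0585), called at day 7 alone and there lost under 6 of 13 alternatives. Parp12, an ADP-ribosyltransferase encoded on chromosome 6, did not pass, at 0.46, -0.28 and -0.02.

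Rsad2 was lower in WT tumours at both later stages. At day 7 Rsad2 read 12.88 and 12.37 in WT and 12.34 and 12.39 in Pfp/Rag2 -/- tumours. At day 14 Rsad2 read 11.60 and 12.10 against 12.68 and 12.41. Rsad2 in symptomatic tumours read 11.34, 11.56 and 11.44 against 12.10, 12.18 and 12.17. The hosts overlapped at day 7, and WT arrays were the lower ones at both later stages. The difference was -0.69 (SE 0.18, adjusted p = 0.0232) at day 14, lost without WT array 1 or Pfp/Rag2 -/- array 1 (-0.94 to -0.44 over 13 alternatives), and -0.70 (SE 0.15, adjusted p = 0.0055) in symptomatic tumours, called under all 16. Cultured cells read 11.54 and 11.54, within the range of symptomatic WT tumours, and brain 5.56 and 5.73.

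Cmpk2, a nucleotide kinase whose gene neighbours Rsad2 on chromosome 12, was higher in WT tumours at day 7, at 0.72 (SE 0.16, adjusted p = 0.027). It lost this call under 4 of 13 alternatives, and its difference at day 14 was -0.51 (adjusted p = 0.0556). Isg20 encodes an exonuclease that degrades single-stranded RNA. At day 7 Isg20 read 8.18 and 7.54 in WT and 5.74 and 6.44 in Pfp/Rag2 -/- tumours. At day 14 Isg20 read 7.05 and 7.51 against 7.07 and 7.58. Isg20 in symptomatic tumours read 6.65, 7.41 and 7.66 against 6.46, 6.85 and 6.77. WT arrays were clearly higher at day 7 and overlapped with the other host later. The difference at day 7, 1.77 (SE 0.33, adjusted p = 0.01), was the largest of the 34 at that stage, and it was lost without WT array 1 or Pfp/Rag2 -/- array 1 (1.12 to 2.12 over 13 alternatives). Cultured cells, at 6.06 and 6.06, and brain, at 4.54 and 4.54, did not detect it.

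Samd9l, a factor that restricts translation of viral and cellular RNA, fell from stage to stage in WT tumours. At day 7 Samd9l read 13.19 and 12.77 in WT and 12.40 and 12.54 in Pfp/Rag2 -/- tumours. At day 14 Samd9l read 12.01 and 12.07 against 12.59 and 12.35. Samd9l in symptomatic tumours read 11.40, 11.33 and 11.48 against 11.85, 11.95 and 11.84. WT arrays were the higher ones at day 7 and the lower ones afterwards, without overlap. The difference was 0.51 (adjusted p = 0.0637), -0.43 (adjusted p = 0.0535) and -0.48 (SE 0.11, adjusted p = 0.0106), and the last was lost on the series values (-0.35). Cultured cells read 11.63 and 11.66 and brain 8.12 and 8.19.

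Rtp4, a chaperone of G protein-coupled receptors that also binds viral replication complexes, was the other gene called lower at both later stages. At day 7 Rtp4 read 7.63 and 7.71 in WT and 7.52 and 7.59 in Pfp/Rag2 -/- tumours. At day 14 Rtp4 read 7.25 and 7.37 against 7.82 and 8.10. Rtp4 in symptomatic tumours read 7.43, 7.64 and 7.40 against 7.88, 8.05 and 7.82. The WT arrays were the higher ones at day 7 by a small margin and the lower ones at both later stages. The difference of Rtp4 was -0.65 (SE 0.16, adjusted p = 0.0158) at day 14. That call was lost on the series values and without WT array 1 or Pfp/Rag2 -/- array 2. In symptomatic tumours it was -0.42 (SE 0.13, adjusted p = 0.0395), lost under 8 of 16 alternatives (-0.50 to -0.24). Cultured cells read 7.47 and 7.36 and brain 4.998 and 4.53, undetected. Ifi35 and Ifi27 were called at no stage by their brightest probes, with symptomatic differences of -0.01 and -0.35. Other probes of Ifi27, under an older name, were 0.89 and 0.83 there.

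The change of the host difference from day 7 to day 14 was tested directly as an interaction. Oas1g, Oas2, Cmpk2 and Samd9l were called, all toward lower values in WT tumours, 4 of 34 against 0.864% of all genes, and 0 toward higher values against 1.67%. The estimates were -1.07 (SE 0.24, adjusted p = 0.0385) for Oas1g, -1.79 (SE 0.43, adjusted p = 0.0471) for Oas2, -1.23 (SE 0.23, adjusted p = 0.0214) for Cmpk2 and -0.94 (SE 0.20, adjusted p = 0.0328) for Samd9l. The change was below 0 for 32 of 34 genes, with a median of -0.76 against -0.05 over all genes. In choroid plexus markers the order of the hosts turned between these stages as well, as given above. Their part in the change was not tested. Leaving out 1 array gave counts of 0 to 10, and 0 without WT array 1 of day 7, Pfp/Rag2 -/- array 1 of day 7, WT array 1 of day 14 or Pfp/Rag2 -/- array 2 of day 14.

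From day 14 to the symptomatic stage the host difference did not change detectably. limma called 0 of 34 genes and 0% of all genes in either direction, with an unadjusted p under 0.05 for 2 of 34 and for 2143 of 13308. The interval for Oas2 ran from -0.85 to 0.84. The stages rest on different arrays, so that their host differences can be set side by side. Across the 34 genes they correlated at r = 0.82 (rho = 0.82) between day 14 and the symptomatic stage, and 32 (94.1%) had the same sign, against r = 0.54 and 60.4% over all genes. Genes that share regulators are not independent points. Between day 7 and day 14 the correlation was 0.56, with the same sign for 9 of 34 (26.5%), against 0.30 and 55.3% over all genes. Between day 7 and the symptomatic stage it was 0.60, with 11 (32.4%), against 0.36 and 55.4%. Ddx58, Oas1g, Oas2, Rsad2 and Rtp4 were called lower at both later stages, as were 329 of all genes.

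**Figure D4:**
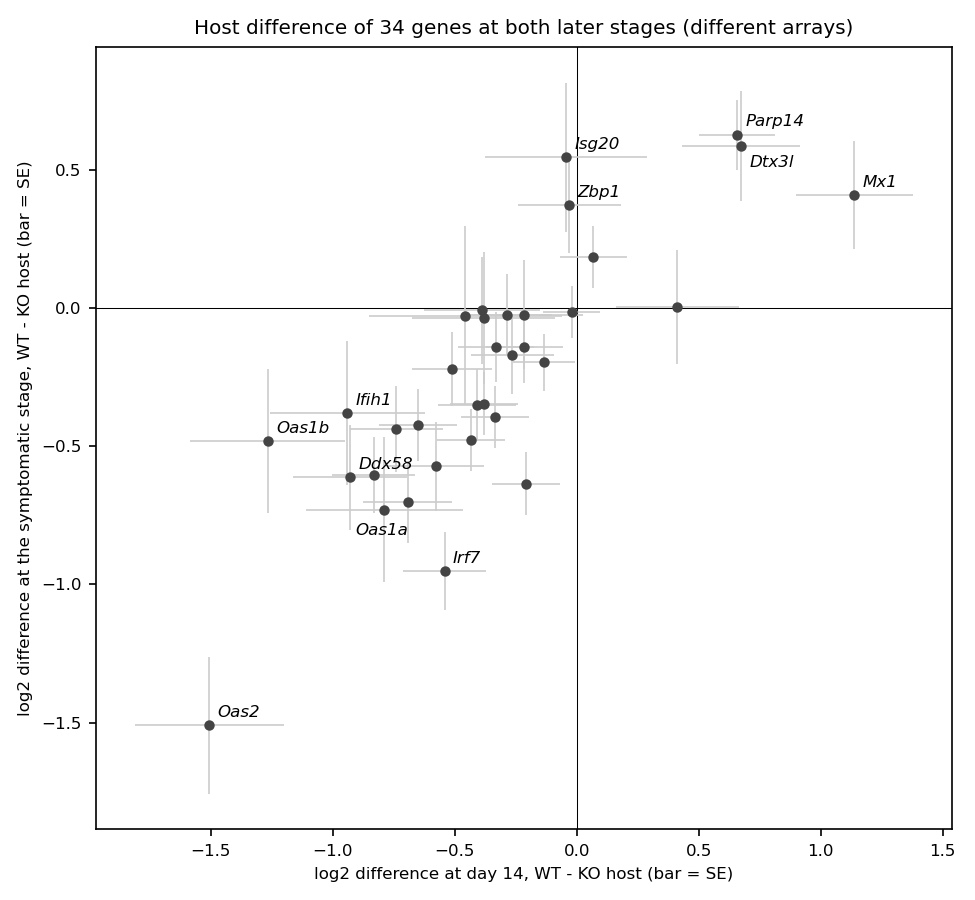
Each point is 1 of the 34 genes, with its host difference (log2, WT minus Pfp/Rag2 -/-) at day 14 on the x axis and in symptomatic tumours on the y axis, and the SE of each as bars. Oas2 lies lowest on both axes, and Parp14, Dtx3l and Mx1 lie highest at day 14.

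Within hosts, some of the antiviral genes were called higher at day 14 than at day 7 in Pfp/Rag2 -/- tumours, and some lower in WT tumours. Cmpk2 was called in both steps. These steps rest on the same arrays as the change of the host difference. In Pfp/Rag2 -/- tumours 18 of 34 genes were higher at day 14 than at day 7, where 19.4% of all genes were higher and 16.9% lower, and the median difference was 0.50 against 0.10 over all genes. Among them were 5 sensors (Ifih1, Ddx58, Dhx58, Zbp1 and Eif2ak2) and 6 of 7 OAS genes, and Isg20 at 1.24 (adjusted p = 0.0151) had the largest difference. Oas2 rose by 1.10 (adjusted p = 0.017), Oas3 by 1.11 (adjusted p = 0.0142) and Ifi35 by 1.04 (adjusted p = 0.00827). Without Pfp/Rag2 -/- array 1 of day 7 or array 2 of day 14, 0 were called. Under cyclic loess scaling 10 were called, all higher, with 31.7% of all calls higher in place of 53.5%, and on the series values 5 higher and 1 lower, with 17% of all calls higher. The median of the antiviral genes lay 0.35 and 0.55 above that of all genes under these scalings, which was -0.07 and -0.35. Between these stages all 6 oligodendrocyte and all 6 choroid plexus markers were called lower in Pfp/Rag2 -/- tumours, with summed signals of 32790 to 43100 and then 6752 to 13310 for the first list. Their part in the rise was not tested.

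In WT tumours 6 genes were lower at day 14 than at day 7 (4.77% of all genes lower, 4.06% higher) and 0 higher. They were Irf7, Ifit3 at -0.56 (adjusted p = 0.0283), Mx2 at -0.71 (adjusted p = 0.0107), Rsad2 at -0.77 (adjusted p = 0.0234), Cmpk2 at -0.58 (adjusted p = 0.0448) and Samd9l at -0.94 (adjusted p = 0.00239). From day 14 to the symptomatic stage 8 were lower (9.95% lower, 9.53% higher) and 0 higher. The difference was -1.22 (adjusted p = 0.00575) for Ifit2 and -0.97 (adjusted p = 0.00116) for Ifit3, and Mx1, undetected on the symptomatic arrays, was at least 1.66-fold lower (adjusted p = 0.00615). The counts were 1 without WT array 1 of day 7, for the first step, and 2 without WT array 1 of day 14, for the second. On the series values 16 and 21 genes were lower, as 7.96% and 3.44% of all calls were higher in place of 46% and 48.9%, and under cyclic loess 26.8% of all calls of the second step were higher.

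In Pfp/Rag2 -/- tumours all 34 genes had lower values in symptomatic tumours than at day 14, with a median of -0.41 against 0.00 over all genes. limma called 0 of them, where 0.0301% of all genes were lower and 0.00751% higher, and 16 had an unadjusted p under 0.05. On the series values 32 were called lower, with a median over all genes of -0.42 there.

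The genes upstream of the set were mostly higher in WT tumours where they were called. Of 32 listed genes of interferon production and signalling 27 were tested. In WT tumours 10, 12 and 13 were higher over the 3 stages in order, against 2.47%, 7.25% and 9.35% of all genes. The counts lower were 0, 1 and 0, against 1.11%, 6.57% and 7.99%. Stat2 was higher by 0.81 (adjusted p = 0.0231) at day 7 and 0.87 (adjusted p = 0.00114) in symptomatic tumours, and its day 14 value was 0.50 (adjusted p = 0.0794). Irf9, the DNA-binding part of ISGF3, was called at no stage, at 0.23, -0.27 and -0.12. Irf1, a factor induced by interferon-gamma, was higher by 2.00 (adjusted p = 1.16e-05), 1.77 (adjusted p = 8.45e-06) and 1.79 (adjusted p = 1.22e-06). Adar, an RNA editing enzyme that is itself interferon-induced, was the 1 called lower, at -0.55 (adjusted p = 0.0104) on day 14.

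The interferons themselves were mostly below detection. Probes of Ifnb1, Ifna2 and Ifna4 were detected on 0 of 18 arrays, and an Ifna1 probe was near the limit on 15 arrays of all groups and called at no stage. Of the receptor chains, Ifnar2 was not called, and the 1 linked probe of Ifnar1 was detected on 0 of 18 arrays. Whether that probe reads its gene was not tested. Ifng, the lymphocyte cytokine, was undetected in the Pfp/Rag2 -/- tumours and higher in WT tumours by at least 2.8-fold, 2.31-fold and 1.24-fold (adjusted p = 0.000905, 0.000214 and 0.00115).

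Targets of interferon-gamma, a list with no gene in common with the antiviral set, were mostly higher in WT tumours. Of 18 listed 15 were tested, and 14, 12 and 14 were higher in WT tumours at the 3 stages, against 2.47%, 7.25% and 9.35% of all genes. None was lower, against 1.11%, 6.57% and 7.99%, and the medians were 1.70, 1.71 and 1.96. This list, like the antiviral set, was chosen with earlier results of these data known, so their contrast is a description and not a test. Cd274, the checkpoint ligand PD-L1, was higher by 2.54, 2.77 and 2.54, and Gbp2, a guanylate-binding protein, by 1.69, 2.01 and 2.29. Over the same arrays the 34 antiviral genes had medians of 0.37, -0.38 and -0.21. Macrophage markers were higher in WT tumours at each stage too, as given above, and their part in either list was not tested.

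**Figure D5:**
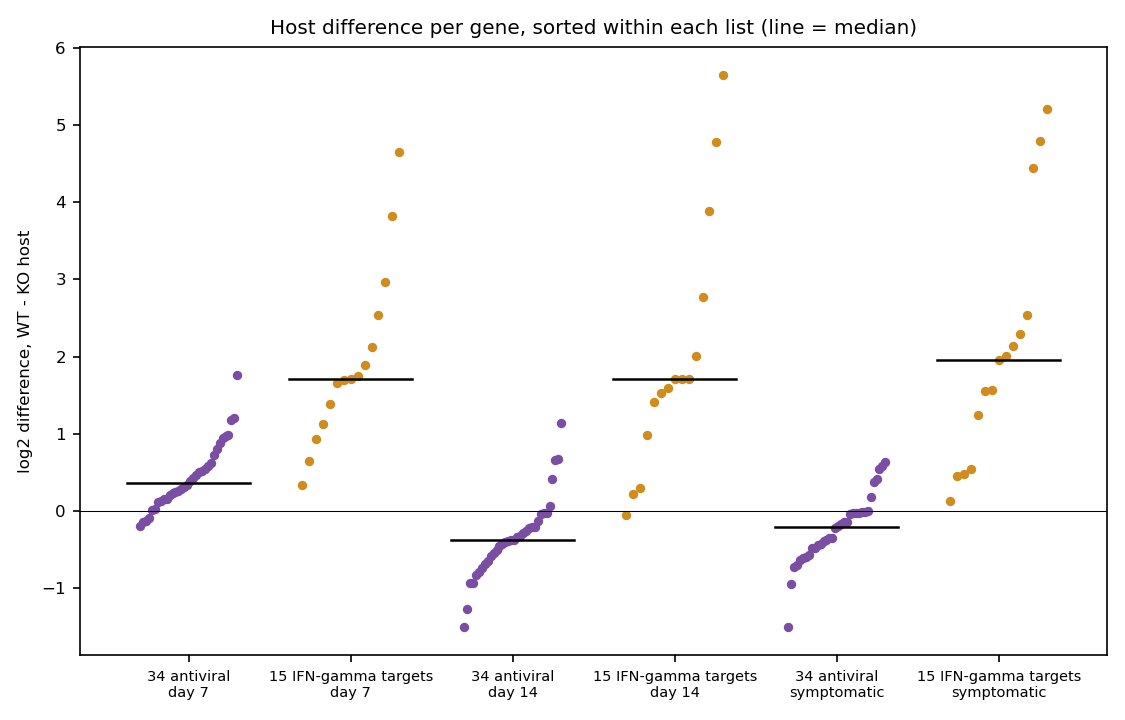
Host difference per gene (log2, WT minus Pfp/Rag2 -/-), sorted within each list and stage, for the 34 antiviral genes (purple) and the 15 tested interferon-gamma targets (orange), with a line at each median. Medians are 0.37, -0.38 and -0.21 for the antiviral genes and 1.70, 1.71 and 1.96 for the interferon-gamma targets.

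Symptomatic tumours were also set against the cultured cells of the same line. In WT hosts 8 genes were higher (17.5% of all genes) and 4 lower (16.2%), with a median of 0.08. Parp14, at 1.35 (adjusted p = 7.26e-06), Oasl1, at 1.31 (adjusted p = 0.000434), and Ifit2, at 1.08 (adjusted p = 0.00256), were among the higher ones. Oas1a, at -1.28 (adjusted p = 0.00425), Ddx58, at -0.83 (adjusted p = 0.00831), Mx2, at -0.65 (adjusted p = 0.00136), and Ifit3 were the lower ones. In Pfp/Rag2 -/- hosts 13 were higher (18.9%) and 1, Mx1, lower (17.2%), with a median of 0.31. Mx1 was on no array of either group there, so its call carries no direction or fold. There Oas2, at 1.71 (adjusted p = 0.000353), and Irf7, at 1.37 (adjusted p = 1.86e-05), were higher, while in WT hosts Oas2, at 0.20 (adjusted p = 0.625), and Irf7, at 0.42 (adjusted p = 0.0543), were not called. That the hosts differ in this was tested in the host comparison above. Both comparisons share the cultured-cell arrays. Without cultured array 2 the counts of 12 and 14 were both 6, and without array 1 the second was 6 as well. On the series values 94.6% and 91.6% of all calls were higher in place of 51.9% and 52.4%, and all 23 and 26 calls in the set were higher, with the set's median -0.04 and 0.12 from that of all genes.

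For 14 of the 34 genes several probes were kept, and the signs of their host differences disagreed for 4 genes at day 7 and for 3 at each later stage. The brightest Ifitm1 probe was -0.21 at day 14, and another probe on 16 arrays was 2.19 there and 0.99 in symptomatic tumours. The cultured-minus-brain difference was 4.55 for the first probe and -3.20 for the second. Ifi27 had rows under 2 names. The probe named Ifi27 was -0.41 at day 14, and those under the older name D12ERTD647E were 0.96 and 0.85. Values of these genes are therefore those of the probe named and not of the gene as a whole.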

How the data were processed

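Illumina mouse WG-6 v2.0 arrays measured the RNA, per the labels' protocols. The authors deposited probe signals as intensity values on a linear scale, with no background subtraction and no scaling between arrays as their values show. Their gene table lists, per group, signal bounds, a mean and a detection score, a unit named other here, made with GenomeStudio 1.9.0 without normalization per the file headers. The series values are intensity values too, which the authors deposited with a ceiling and with scaling unstated.

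As the probe signals carry no symbols, each gene was matched to its probes by equal values (29831 of 30854 genes, 96.7%, with 40564 probes). Older symbols were updated with the RefSeq annotation of GRCm38.p6 (16223 names by symbol, 5692 by synonym, 8939 left). Background correction against 946 negative controls and quantile normalization used neqc (offset 16) of limma 3.58.1 in R 4.3.3. A probe needed a detection p under 0.01 on 2 or more arrays, and a gene was represented by its brightest such probe. The model held 8 group means over 18 arrays (lmFit, eBayes, 10 residual degrees of freedom), with Benjamini-Hochberg adjustment over 13308 genes in each comparison. Every gene p-value is limma's. A gene detected on no array of the dimmer group has a least fold, with that group set to the lowest signal of a detected probe on its arrays (log2 5.56 to 6.32). The fit was tested on simulated data. Tables and figures used Python 3.11.15, pandas 2.3.3, numpy 2.4.6 and matplotlib 3.10.9.

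The 40 genes and the other lists were chosen with earlier results of these data known. Values by array are given for the 14 called genes with the smallest adjusted p over the host comparisons and their changes, and for Irf7, Oas1a, Mx1, Rsad2, Ddx58 and Bst2, listed as examples of their roles (of these Oas1a and Bst2 were not among the 14). Isg15 and Ifit1, listed likewise, could not be tested. Of genes outside the set, parts of the interferon pathway and list members with the smallest p are named. Alternatives were no background correction, cyclic loess, the series values, other probe filters, the mean of probes, fewer arrays in the fit, a replicate block, and each array left out. The titles and descriptions number symptomatic Pfp/Rag2 -/- arrays 2 and 3 in opposite order, and the titles were used.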

Additional observations from a re-analysis of the deposited data

Results flagged for a closer look

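For 4 genes the host difference itself changed between day 7 and day 14 by limma's test of the interaction (2 arrays per host and stage). The change, as the day 14 difference minus the day 7 difference on the log2 scale, was -1.07 for Oas1g, with WT minus Pfp/Rag2 -/- at 0.24 and then -0.83. For Oas2 it was -1.79, from 0.28 to -1.50. For Cmpk2 it was -1.23, from 0.72 to -0.51, and for Samd9l -0.94, from 0.51 to -0.43. Choroid plexus markers were higher in Pfp/Rag2 -/- tumours at day 7 and in WT tumours at day 14, and their part was not tested. Each of the 4 calls was lost without WT array 1 of day 7 (0 genes called), and adjusted p reached 0.29 for Oas1g, 0.34 for Oas2, 0.29 for Cmpk2 and 0.32 for Samd9l over 17 alternatives.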

How the results depend on the processing

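Counts are of members called, main value first. With only the arrays compared in the fit, the host counts at day 7 and day 14 (6 and 9) were 0, as were those of the change from day 7 to day 14 (4), of both WT steps (6 and 8) and of the Pfp/Rag2 -/- step from day 7 (18); this fit has fewer residual degrees of freedom. With the 14 tumour arrays they were 2 at day 7, 0 for the change and 2 for the first WT step. On the series values the WT steps gave 16 and 21, the Pfp/Rag2 -/- steps 6 and 32 (main 0), and symptomatic tumours against cultured cells 23 in WT and 26 in Pfp/Rag2 -/- hosts (main 12 and 14). Cyclic loess gave 10 for the first Pfp/Rag2 -/- step. The change gave 7 without background correction and 2 without the probe filter. With the replicate number as a block the day 7 count was 10 and the change 13. Deviations from the group mean correlated between same-numbered arrays of the hosts at 0.06 (day 7), 0.72 (day 14) and -0.15, 0.09 and -0.26 (symptomatic). With 2 arrays per group the opposite pairing gives the same value with its sign turned. Whether the numbers pair the samples was therefore not settled. Leaving out 1 array gave 1 to 7 at day 7, 3 to 11 at day 14, 7 to 10 in symptomatic tumours, 0 to 10 for the change, 0 for the later change, 1 to 4 and 2 to 9 for the WT steps, 0 to 15 and 0 for the Pfp/Rag2 -/- steps, 32 to 33 against brain in each of 3 comparisons, and 6 to 14 (WT) and 6 to 13 (Pfp/Rag2 -/-) against cultured cells. Where not given, the cause was not tested. For single genes, 325 of 439 repeats kept call and direction, 114 lost the call and 0 reversed. A slide block was not run, since no slide was given. Pools of 2 or 3 mice, 2 or 3 per group, limit all values.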
